A study of Mus musculus with 16 samples.

Results

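The comparison covers 9 of the 16 samples of the series: 5 arrays of metanephric mesenchyme from HoxA11, D11 double null mouse embryos and 4 of wild-type metanephric mesenchyme, all taken by laser capture at E11.5, when the ureteric bud enters the mesenchyme. The samples were chosen by their labels and no measured value entered the choice. The remaining 7 arrays hold wild-type mesenchyme (3) and ureteric bud (4) dissected by hand, and the hand-dissected mesenchyme is given below only as a reference level. Null replicates 1 to 5 are double null for Hoxa11 and Hoxd11 and were captured from sections of 7 µm through whole urogenital ridges. Wild-type replicates 1 to 4 were captured from sections of the same thickness through kidney rudiments, each from a pool of 3 to 4 mesenchymes. For the null captures no such pool is stated, so the source piece and the pooling differ together with genotype and cannot be told apart from it. Strain, litter and sex are not given. The series text describes replicates as separate embryos, although each wild-type array is a pool. The p-values below measure the spread between these arrays, which in the wild type is that between pools. The test assumes a common variance for both groups.

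The metanephric mesenchyme is the tissue that condenses around the ureteric bud and gives rise to the nephrons and much of the stroma of the kidney. The Hox11 paralogs are homeobox transcription factors of the posterior trunk. They act in the mesenchyme with Eya1 and Pax2 to turn on Six2, which keeps nephron progenitors from differentiating, and Gdnf, which draws out and branches the ureteric bud. Kidneys that lack Hoxa11 and Hoxd11 are severely reduced, and the comparison asks which transcripts of the mesenchyme depend on these 2 genes.

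Values are the deposited MAS5 signals, linear intensities scaled per array. A difference is null minus wild type on the scale of log2(signal + 36.3), with the moderated standard error (SE) of limma, and a gene is said to have risen or fallen when its limma p-value, adjusted by Benjamini-Hochberg over all 23387 probe sets tested, was below 0.05. The offset understates the change of dim genes. Each gene was counted through 1 probe set.

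Null replicate 1 stood apart from the other arrays. Its median signal was 209.2, against 112.7 to 128.9 in null replicates 2 to 5 and 162.8 to 182.3 in the wild type. Its log2 values correlated with those of the other null arrays at 0.828 to 0.849 and with those of the wild-type arrays at 0.858 to 0.872, over all probe sets tested. Null replicates 2 to 5 correlated with each other at 0.894 to 0.920, and the wild-type arrays at 0.938 to 0.961. The ratio of 3' to 5' control signals of Gapdh was 22.5 ± 3.28 (SD, n = 5) in null and 19.8 ± 3.96 (SD, n = 4) in wild-type arrays (exact permutation test, two-sided, adjusted p = 0.302). That of Actb was 20.8 ± 4.05 against 17.1 ± 2.62, and the median signal 137 ± 40.8 against 173 ± 10.1 (exact permutation tests, adjusted p = 0.214 each over 3 tests, where 0.0159 is the smallest raw p the design allows).

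The targeted genes were read first. Hoxa11 had signals of 196.6, 91.8, 136.7, 95.7 and 98.8 in null replicates 1 to 5 and of 814.3, 656.4, 839.6 and 525.5 in wild-type replicates 1 to 4. All 5 null arrays lay below all 4 wild-type arrays, with null replicate 1 the highest of the null arrays. Hoxa11 thus fell 5.72-fold between group means (log2 difference -2.23 ± 0.34 SE, limma adjusted p = 0.0114). Without null replicate 1 the difference was -2.38 (adjusted p = 0.00334), and the call was lost without wild-type replicate 1, 2 or 3 (adjusted p = 0.0542, 0.0583 and 0.0656). Hoxa11os, the noncoding transcript read from the opposite strand of the Hoxa11 locus, had signals of 337.5, 519.3, 539.4, 166.2 and 131.2 in the null and of 2512, 2694, 3539 and 2260 in the wild type. It fell 8.12-fold (-3.05 ± 0.41 SE, limma adjusted p = 0.00677), with no overlap of the groups, and remained called whichever single array was left out (adjusted p up to 0.0394).

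Hoxd11, the other targeted gene, did not separate the groups. Its signals were 306.4, 447.3, 482.2, 192.0 and 277.5 in the null and 586.8, 452.3, 381.8 and 317.8 in the wild type, so that the groups overlapped (-0.35 ± 0.35 SE, limma adjusted p = 0.635). Whether its probe set, or that of Hoxa11, lies in the part of the gene that the targeting removed is not known here, so neither level checks the labels on its own. The third paralog of the group, Hoxc11, was not matched to a probe set. Of the 3 genes of the Hox11 group that were tested, 2 were thus called lower, where 0.995% of all 12161 genes tested were. Both are read from the targeted Hoxa11 locus, so the count describes that locus and not the group.

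The regions upstream of these genes show how close the Hoxa11 pair lies. The 250 bases before the annotated start of each, from the RefSeq table of build GRCm38.p6, are given because both transcripts fell together. Hoxa11 starts on the minus strand of chromosome 6, and its window is chr6:52245811-52246060. Hoxa11os starts 567 bases away on the plus strand, and its window, chr6:52244993-52245242, lies within the annotated span of Hoxa11. Each is printed 5′ to 3′ on the strand of its own gene, and capitals would mark the letters TCGTAAA or their reverse complement TTTACGA, a core bound by posterior Hox proteins, or TGGGAA and its reverse complement TTCCCA, the core bound by the Notch effector Rbpj.
Hoxa11: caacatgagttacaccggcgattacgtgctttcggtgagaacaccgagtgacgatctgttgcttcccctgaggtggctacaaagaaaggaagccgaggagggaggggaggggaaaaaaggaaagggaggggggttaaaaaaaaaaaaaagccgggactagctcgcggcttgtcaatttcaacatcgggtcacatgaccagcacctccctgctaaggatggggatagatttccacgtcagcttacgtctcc
Hoxa11os: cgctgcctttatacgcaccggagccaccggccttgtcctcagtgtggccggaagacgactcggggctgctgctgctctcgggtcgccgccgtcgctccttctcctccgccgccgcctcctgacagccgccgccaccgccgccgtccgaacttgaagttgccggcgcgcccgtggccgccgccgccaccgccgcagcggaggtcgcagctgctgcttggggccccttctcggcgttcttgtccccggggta
Neither window holds any of these letters. The posterior Hox letters occur in 0.478% of all 32851 windows of the table, and the Rbpj letters in 21.6%. A match or its absence describes only these letters in these windows.

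Of the 40 genes tested nearest to Hoxa11, 20 on each side, 2 were called lower (5.0%): Hoxa11os and Tra2a, a splicing regulator outside the cluster. Tra2a had signals of 7788, 9161, 6959, 6020 and 6302 in the null against 11950, 11730, 14430 and 12920 in the wild type (-0.82 ± 0.16 SE, limma adjusted p = 0.0337). Of the 40 nearest to Hoxd11, 1 was called higher (2.5%), Metap1d, a mitochondrial methionine aminopeptidase, at 3222, 2978, 3314, 1788 and 2693 against 885.5, 458.4, 1114 and 1562 (1.53 ± 0.34 SE, adjusted p = 0.047). Tra2a lost its call without null replicate 3 or 5 or any wild-type array (adjusted p = 0.0555 to 0.123), and Metap1d without null replicate 2, 3 or 5 or any wild-type array (0.0696 to 0.122). Of all genes 0.995% were called lower and 0.748% higher. Tra2a and Metap1d are named because they were the called neighbours, after their values were seen.

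The rest of the Hox clusters was near the level of all genes. Hoxa11 was the only 1 of 8 Hoxa genes tested to be called, and 0 of 7 Hoxb, 0 of 6 Hoxc and 0 of 7 Hoxd genes were, also without null replicate 1. At an unadjusted limma p below 0.05 there were 3, 2, 0 and 1 of them. So were 2319 of all 12161 genes tested, the share to set beside such counts in the lists below. Hoxa9, the brightest Hoxa gene, had signals of 41360, 39120, 45680, 43190 and 38610 in the null and 36430, 32760, 27340 and 30720 in the wild type. These groups did not overlap, as in 3.26% of all genes with the null higher, but the difference did not pass the test (0.39 ± 0.12 SE, limma adjusted p = 0.109). Hoxa5 had a difference of -0.85 ± 0.25 SE (adjusted p = 0.106). Hoxd13, which patterns the hindgut and cloaca, varied widely within both groups, at 665.7, 12.7, 48.3, 203.6 and 1066 in the null and 498.4, 1437, 11050 and 7560 in the wild type (-3.58 ± 1.06 SE, adjusted p = 0.11).

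Over all genes, 91 of 12161 rose (0.748%) and 121 fell (0.995%), 1.74% together, and the median difference of all genes was -0.10. As probe sets these were 138 higher (0.59%) and 273 lower (1.17%) of 23387, 1.76% together, with a median of -0.15. The balance of the directions depended on the scaling. With quantile normalization 159 probe sets were higher and 243 lower, with cyclic loess 158 and 184, and with each array centred on its median, where the median difference of all genes moved from -0.10 to 0.20, 136 were higher and 71 lower. For 211 of the 212 called genes the null and wild-type arrays did not overlap. Such a gap was found for 396 genes with the null higher (3.26%) and 702 with it lower (5.77%), and for 2.68% and 6.14% of probe sets. The exception was Nkain1, named for this reason, a membrane protein that binds the sodium pump, with 12160 in null replicate 1 and 12540 in wild-type replicate 1 (0.97 ± 0.21 SE, limma adjusted p = 0.044; 0.0542 to 0.152 without any array but null replicate 1). No called gene had another probe set called in the opposite direction. Leaving out 1 array moved the count of called genes a great deal, to 821 without null replicate 1 and to 89, 89, 269 and 131 without null replicates 2 to 5. It was 47, 33, 34 and 37 without wild-type replicates 1 to 4.

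**Figure D1:**
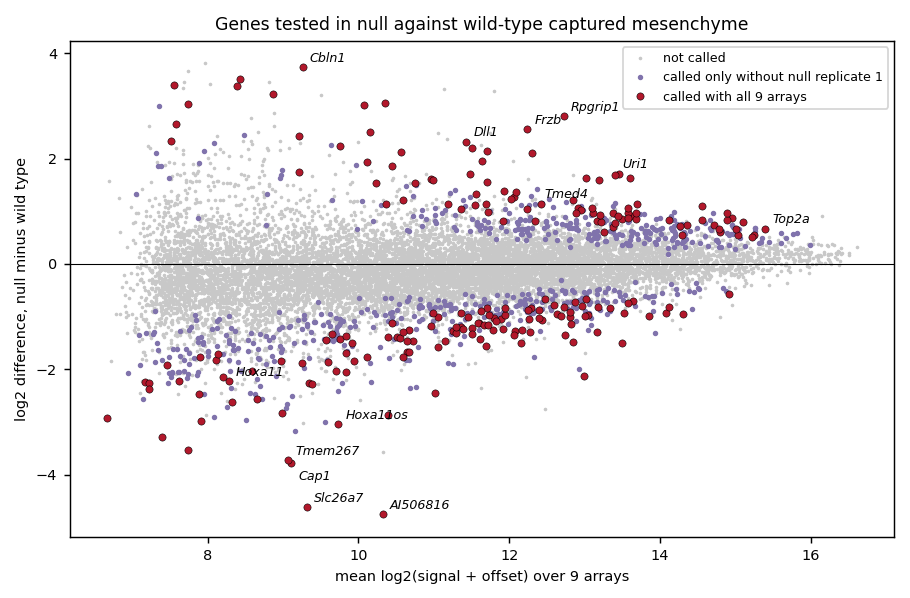
Each point is 1 of the 12161 genes tested, with its mean level over the 9 captured arrays on the x axis as log2(signal + 36.3) and its log2 difference, null minus wild type, on the y axis. Red points are the 212 genes called with all 9 arrays, purple points the 609 called only without null replicate 1, and grey points the others; both called sets lie on either side of 0, 91 higher and 121 lower for the red points.

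Notch signalling passes between touching cells, from a ligand on one to a receptor on the next, and in the kidney it helps commit the first epithelial vesicles of the nephron. Dll1, a ligand that appears in those vesicles, had signals of 6128, 7171, 4223, 6352 and 4601 in the null and of 603.6, 1332, 1141 and 1532 in the wild type. Every null array exceeded the brightest wild-type array, and null replicate 1 lay among the others. Dll1 rose 4.94-fold (2.32 ± 0.28 SE, limma adjusted p = 0.00407) and kept its call without any 1 array (adjusted p up to 0.0197). In the hand-dissected wild-type mesenchyme its mean signal was 623. Its first annotated window, chr17:15375824-15376073 on the minus strand of GRCm38.p6, is given because Dll1 is the Notch gene with the largest increase; it holds neither the Rbpj nor the Hox letters.
Dll1: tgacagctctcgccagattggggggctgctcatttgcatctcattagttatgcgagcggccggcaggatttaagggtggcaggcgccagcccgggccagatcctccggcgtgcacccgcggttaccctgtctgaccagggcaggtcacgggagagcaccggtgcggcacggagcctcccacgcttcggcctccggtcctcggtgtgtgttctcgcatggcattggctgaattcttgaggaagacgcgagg
Here too the printed letters describe the window alone.

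The other ligands did not pass the test. Jag1 had signals of 4580, 8612, 3878, 3876 and 4167 in the null and 1542, 4547, 2948 and 4498 in the wild type, overlapping between the groups (0.61 ± 0.35 SE, limma adjusted p = 0.368). Dll4, a ligand of endothelial cells, was at 269.3, 116.5, 62.8, 210.0 and 246.4 against 349.9, 327.0, 289.2 and 489.6 (-0.98 ± 0.42 SE, adjusted p = 0.236). Of 5 ligands 1 was thus called higher and 0 lower, where 0.748% of all genes were called higher, and their median difference was 0.61.

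Among 9 tested genes of a list of Notch targets, 2 rose, both of the Hes and Hey family of repressors, where 0.748% of all genes rose. The median difference of the list was 0.47, and whether Notch drives its members in this tissue was not tested. Hes6, a member of the family that is also made by differentiating neurons and myoblasts, had signals of 8558, 10420, 9352, 14710 and 11200 in the null and 4880, 5989, 3697 and 6073 in the wild type. The groups were apart, with null replicate 1 the lowest of the null (1.07 ± 0.21 SE, limma adjusted p = 0.0331). Hey1, a target of the pathway in many tissues, was at 10500, 13010, 10280, 11290 and 9255 against 3186, 6633, 6224 and 5885 (1.03 ± 0.22 SE, adjusted p = 0.0436). Both calls were fragile: that of Hes6 was lost without null replicate 2, 3 or 5 or any wild-type array (adjusted p = 0.0553 to 0.104), and that of Hey1 without any array but null replicate 1 (0.0563 to 0.116). Hes1, the most general target, was at 3357, 4785, 4951, 3459 and 5291 against 3522, 3886, 3236 and 3472 (0.28, adjusted p = 0.464). Hes5, which marks neural progenitors as well as early nephrons, was at 3629 in null replicate 4 and 1257 in null replicate 5, against 128.6 to 389.9 in the other null arrays and 29.1 to 161.7 in the wild type (2.19 ± 0.85 SE, adjusted p = 0.197).

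Of the receptors and processing genes 1 of 12 was called, Dlk1, where 1.74% of all genes were, and their median difference was -0.14. Dlk1, a membrane protein related to the ligands that can dampen the pathway and is imprinted, had signals of 1686, 3235, 3796, 4005 and 4335 in the null and 892.5, 1141, 1299 and 858.3 in the wild type. Null replicate 1 was the null array nearest to the wild type, and the groups did not overlap (1.62 ± 0.29 SE, limma adjusted p = 0.0265). The difference was 1.85 without null replicate 1 (adjusted p = 0.00193), and the call was lost without null replicate 2, 3 or 5 or any wild-type array (0.0503 to 0.102). Notch1 and Notch2, the receptors, had differences of 0.88 (adjusted p = 0.285) and 0.60 (adjusted p = 0.266).

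**Figure D2:**
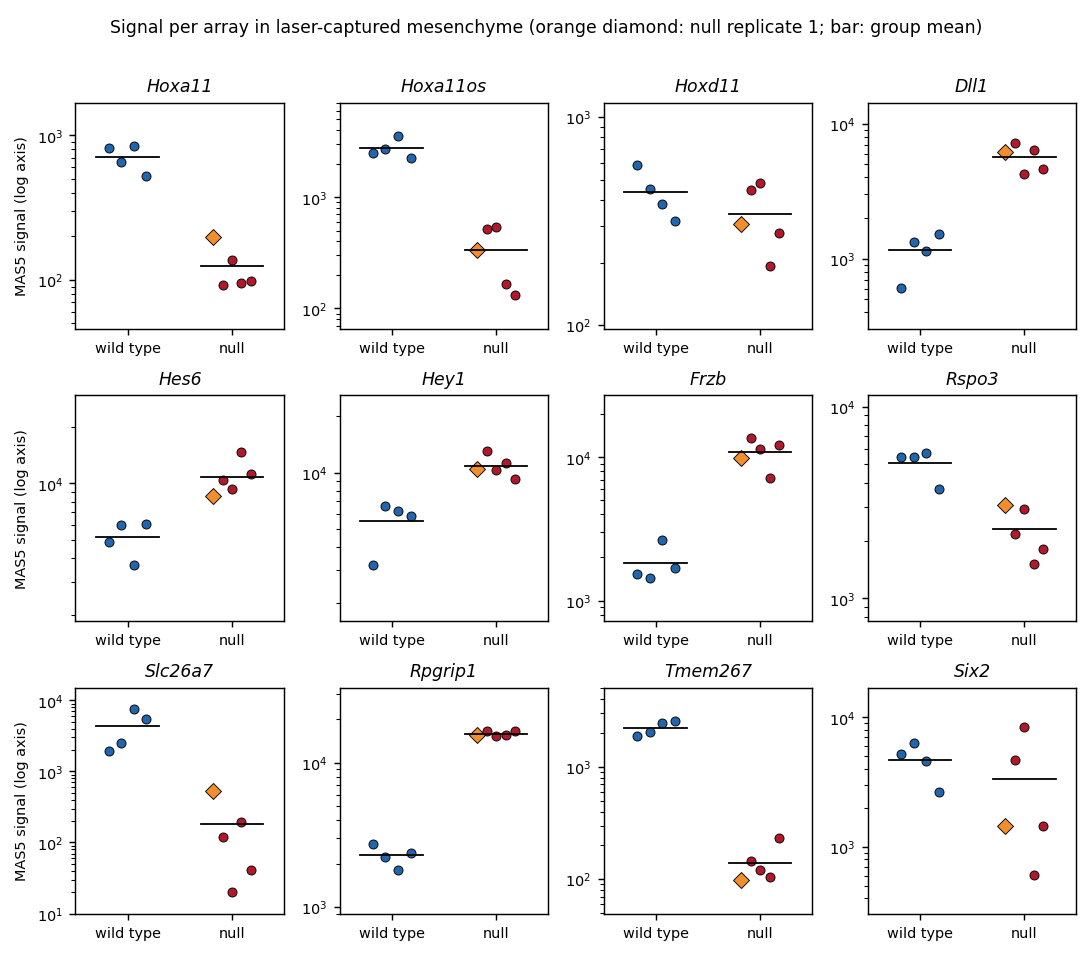
Each panel shows 1 gene, with the deposited MAS5 signal on a log y axis for the 4 wild-type (blue) and 5 null (red) captured arrays; the orange diamond is null replicate 1 and the bar is the group mean. The groups are apart for Hoxa11, Hoxa11os, Dll1, Hes6, Hey1, Frzb, Rspo3, Slc26a7, Rpgrip1 and Tmem267, and overlap for Hoxd11 and Six2.

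Secreted regulators of Wnt signalling changed in both directions. Frzb, which binds Wnt proteins outside the cell and blocks them, had signals of 9919, 13570, 11370, 7205 and 12100 in the null and 1524, 1435, 2647 and 1678 in the wild type. It rose 5.95-fold with no overlap (2.56 ± 0.24 SE, limma adjusted p = 0.000584; up to 0.00481 without any 1 array). Rspo3, which strengthens Wnt signalling by sparing its receptors, was at 3075, 2160, 2933, 1517 and 1812 against 5467, 5456, 5730 and 3720 and fell 2.22-fold (-1.17 ± 0.25 SE, adjusted p = 0.044). Its groups were apart, but the call held without null replicate 1 only (adjusted p = 0.0131) and was lost without any other array (0.0555 to 0.155). Of the 14 feedback and antagonist genes tested these were the 2 called, where 1.74% of all genes were. The median difference of the list was -0.18.

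Sfrp2, a relative of Frzb, was at 28180, 46220, 45850, 29820 and 33660 in the null and 16720, 11480, 25640 and 23020 in the wild type. Its groups were apart, and it passed the test only without null replicate 1 (0.97 ± 0.24 SE, limma adjusted p = 0.0715; 0.0295 without it). Dkk1, another Wnt antagonist, had a difference of -1.64 ± 0.48 SE (adjusted p = 0.109). Among 7 Wnt ligands 0 were called, 3 had an unadjusted p below 0.05, and the median difference was 0.65. Wnt4, the ligand that drives mesenchyme into epithelial vesicles, was at 9462, 11540, 8900, 2869 and 11810 against 2249, 4367, 1266 and 3518. Null replicate 4 lay within the wild-type range and the other 4 null arrays above it (1.62 ± 0.45 SE, adjusted p = 0.0923). Sfrp2, Dkk1 and Hes5 above were picked from their lists after their values were seen.

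Genes of nephron induction as a list showed 2 of 17 higher, Dll1 and Hey1, where 0.748% of all genes rose. The median difference was 0.48, and 7 had an unadjusted limma p below 0.05. Dll1 and Hey1 are counted above among the Notch genes, so the list adds no further called member. Without null replicates 1 and 4, which were left out together after the data were seen, 5 of the 17 were higher, where 605 of all 12161 genes were.

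Of 8 FGF ligands and receptors 0 were called with all 9 arrays (3 with an unadjusted limma p below 0.05). Fgf9, which keeps nephron progenitors alive, was at 599.3, 5931, 2836, 842.3 and 1891 in the null and 369.2, 703.9, 283.4 and 540.6 in the wild type. The null arrays spread widely and null replicate 1 was the lowest of them, inside the wild-type range (1.88 ± 0.59 SE, adjusted p = 0.124; 2.26, adjusted p = 0.0283 without null replicate 1). Likewise 0 of 10 hedgehog genes were called, and Smo, the transducer of the pathway, only without null replicate 1 (0.40, adjusted p = 0.212; 0.52, adjusted p = 0.0356). In the lists of FGF response genes (9), BMP and TGF-beta genes (14) and genes of the GDNF and Ret axis (14) the count was 0, with and without null replicate 1, and 0, 3 and 2 members had an unadjusted p below 0.05.

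Of 12 genes of retinoic acid synthesis and response 1 fell, where 0.995% of all genes did: Aldh1a3, an enzyme that makes retinoic acid. It had signals of 221.0, 332.5, 181.5, 56.4 and 71.4 in the null and of 523.3, 2545, 670.1 and 1334 in the wild type. The groups were apart, though the wild-type arrays spread widely (-2.57 ± 0.55 SE, limma adjusted p = 0.0436), and the call was lost without any array but null replicate 1 (0.0534 to 0.144).

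Slc26a7, an anion exchanger of epithelia, showed the largest decrease that did not rest on any 1 array. Its signals were 534.6, 121.2, 19.9, 191.2 and 40.4 in the null and 1938, 2479, 7520 and 5484 in the wild type, and null replicate 1 was the null array nearest to the wild type. It fell 24.0-fold between group means (-4.62 ± 0.66 SE, limma adjusted p = 0.00955; up to 0.0476 without any 1 array). Without null replicate 1 the difference was -5.09 (adjusted p = 0.00126). Of the 11 transporters of the family listed, 4 passed the filter on dim probe sets, and the other 3 of these had differences between -0.47 and 0.22.

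Of 14 defining regulators of nephron progenitors 0 were called in either direction, 1 had an unadjusted limma p below 0.05, and the median difference was -0.35. Six2 was at 1461, 4715, 8465, 609.9 and 1446 in the null and 5184, 6372, 4618 and 2673 in the wild type. Null replicate 3 exceeded every wild-type array and null replicates 1, 4 and 5 lay below all of them (-1.01 ± 0.63 SE, adjusted p = 0.421). Gdnf, the bud attractant, was at 4293, 30060, 26250, 3358 and 19090 against 11410, 9916, 8510 and 7915. Here the null arrays lay on both sides of the wild type (0.32 ± 0.61 SE, adjusted p = 0.814), and the sign turned without null replicate 2 (-0.02). Eya1 had 3405 and 4426 in null replicates 4 and 5, against 19580 to 21700 in the other null arrays and 8992 to 19870 in the wild type (-0.43 ± 0.57 SE, adjusted p = 0.727).

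Wt1, which the progenitors and the gonad share, and Sall1, a zinc finger factor of the mesenchyme, had differences of -0.45 and -0.44 (limma adjusted p = 0.569 and 0.529). Cited1 did not pass the filter on dim probe sets and was at 9.5 to 171.5 in the null and 105.3 to 465.3 in the wild type. These markers are named because they define the captured tissue. Six2, Eya1, Gdnf, Wt1 and Sall1 were bright in wild-type arrays, and the summed signal of the list was 60850, 107300, 111000, 30410 and 52260 in the null and 48010 to 88100 in the wild type. In bulk samples such as these, fewer cells of a type and less RNA per cell cannot be told apart.

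Stromal genes included 1 call among 16, Dlk1 again, where 1.74% of all genes were called, with a median difference of -0.33. Foxd1, the marker of stromal progenitors, was at 11390, 10260, 13250, 4426 and 4214 in the null and 14690, 10050, 8843 and 8834 in the wild type (-0.41, limma adjusted p = 0.575). As with Eya1, null replicates 4 and 5 were the low arrays. Of 19 interstitial matrix genes 0 were called with all 9 arrays and 4 had an unadjusted p below 0.05. Without null replicate 1, Col1a1, a chain of collagen I, fell (-1.42, adjusted p = 0.0243) and Fbln1, a matrix glycoprotein, rose (0.75, adjusted p = 0.0357).

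Markers of cells that the capture could have taken along also differed between arrays, and their part in the results was not tested. The muscle and somite markers summed to 152900 in null replicate 4, against 5791 to 20870 in the other null arrays and 9515 to 10760 in the wild type, with Myog, the regulator of muscle differentiation, at 11900 there and 89.8 to 679.0 in the others. The gonad and coelomic markers summed to 39850 in null replicate 5 and 4349 to 6191 in the other null arrays, with 5612 to 7597 in the wild type. Nr5a1, the regulator of the gonad and adrenal, was at 3089 in null replicate 5 and at 17.4 to 26.7 in the other null arrays. Lhx9 (4802) and Upk3b (8010) were likewise high there. The wild-type arrays differed too. Markers of posterior trunk and cloaca, a list that holds Hoxd13, summed to 34380 and 36030 in wild-type replicates 3 and 4. The sums were 4087 and 4951 in wild-type replicates 1 and 2, and 2302 to 9160 in the null. Slc26a7 was also highest in wild-type replicates 3 and 4, and whether the 2 patterns are linked was not tested. Neural tube markers summed to 12070, 3842, 3551, 34590 and 9895 in the null and 2517 to 3545 in the wild type. Every null array was above every wild-type array, but null replicates 2 and 3 only narrowly. Both lay below hand-dissected wild-type mesenchyme, at 4859 to 7452. Of 7 neural tube genes tested 0 were called, with and without null replicate 1. Neurog2, a proneural factor, was at 8802 in null replicate 4, and Sox2, a factor of neural progenitors, at 4659.

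Neuronal and neural crest markers summed to 136800, 86200, 64240, 114800 and 42080 in the null and 35140 to 55410 in the wild type, with null replicate 1 the highest. Of 16 tested, 3 rose, where 0.748% of all genes did, with a median difference of 1.04. Ina, a neuronal intermediate filament, was at 898.2, 1267, 520.0, 5060 and 276.5 against 113.9, 12.5, 24.7 and 103.0 (3.51 ± 0.72 SE, limma adjusted p = 0.0391). Rtn1, a reticulon of neurons, was at 10470, 2255, 1211, 5517 and 849.7 against 201.0, 231.3, 273.1 and 617.1 (3.01 ± 0.66 SE, adjusted p = 0.047). Ncam1, an adhesion molecule of neurons and of the induced mesenchyme, was at 47800, 46400, 43320, 31640 and 30280 against 24810, 18770, 25180 and 19560 (0.84 ± 0.17 SE, adjusted p = 0.0399). In all 3 the groups were apart, and null replicate 1 was the highest array for Rtn1 and Ncam1. Of the other probe sets tested for Ncam1, 1 had a difference of the opposite sign (-1.48, adjusted p = 0.219), and the hand-dissected mesenchyme, at 32410 to 37410, lay within the null range of Ncam1. None of the 3 was called without null replicate 2, null replicate 3 or any wild-type array (adjusted p 0.0582 to 0.149), and Rtn1 also not without null replicate 4 (0.0723). Tubb3, a tubulin of neurons, had a difference of 2.06 (adjusted p = 0.119).

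Of 13 macrophage markers 2 fell, with a median difference of -1.66. They summed to 19950, 2078, 8290, 5419 and 3694 in the null and 14170 to 27630 in the wild type, so null replicate 1 alone lay within the wild-type range. Tyrobp, an adaptor of myeloid receptors, was at 708.4, 75.9, 519.5, 226.5 and 288.5 against 1449, 2104, 1828 and 1104 (-2.28 ± 0.50 SE, limma adjusted p = 0.047). Ccl6, a chemokine of macrophages, was at 154.0, 20.6, 133.3, 25.3 and 34.0 against 781.8, 769.7, 663.3 and 680.4 (-2.99 ± 0.45 SE, adjusted p = 0.0113). Tyrobp lost its call without any array but null replicate 1 (0.0585 to 0.155) and Ccl6 without any wild-type array (0.0505 to 0.0598). The list had 0 calls without any 1 of the wild-type arrays, 1 without any 1 of null replicates 2 to 5, and 9 without null replicate 1. Of all genes 0.995% fell with all 9 arrays and 3.86% without null replicate 1. Csf1r, the receptor that defines the lineage, was at 9678, 60.1, 3604, 2548 and 903.5 against 10470, 10140, 7124 and 4764 (-2.35, adjusted p = 0.25).

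Endothelial genes (16 tested, median difference -0.93) and ureteric bud genes (19 tested, median -0.55) had 0 calls with and without null replicate 1, and 5 and 3 members with an unadjusted limma p below 0.05. The endothelial sum was 14300 to 33120 in the null and 19260 to 56250 in the wild type. Kdr and Cdh5, chosen as its receptor and its junction cadherin after their values were seen, had differences of -0.82 (adjusted p = 0.371) and -1.78 (adjusted p = 0.138). The bud sum was 22270 to 67170 in the null and 14960 to 82840 in the wild type, above the 3954 to 4530 of hand-dissected mesenchyme. Calb1, the calcium-binding protein of the bud, was at 79.4 in null replicate 1 and at 4044 to 6880 in the other null arrays, against 3731 to 27960 in the wild type.

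**Figure D3:**
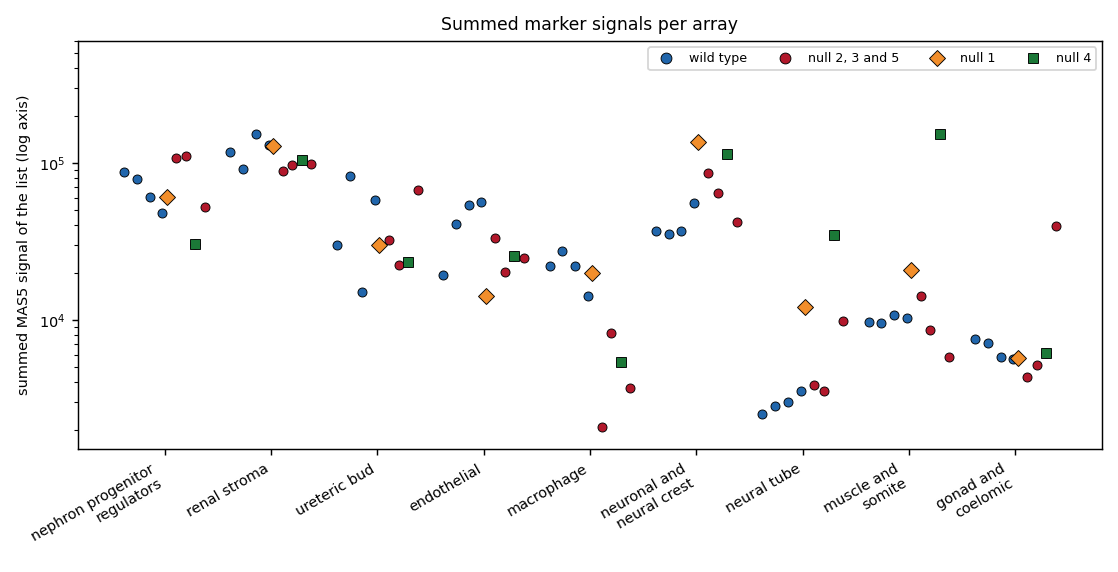
The y axis (log scale) gives the summed MAS5 signal of each marker list in each captured array: wild type in blue, null replicates 2, 3 and 5 in red, null replicate 1 as an orange diamond and null replicate 4 as a green square. Null replicate 4 stands out for muscle (152900) and neural tube (34590), null replicate 5 for gonad and coelomic markers (39850), and null replicate 1 lies with the wild type for macrophage markers (19950).

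The transcripts that mark sex varied within both groups. Xist, the transcript of the inactive X chromosome, was at 29.0, 36580, 39310, 4318 and 173.1 in the null and 51030, 47530, 2761 and 10690 in the wild type. Eif2s3y, on the Y chromosome, was at 2750, 6.5, 6.3, 15 and 1748 against 1128, 1160, 3322 and 3019. All 4 wild-type pools held both transcripts, while null replicates 1 and 5 held mainly the second and null replicates 2 to 4 mainly the first. Neither passed the test with all 9 arrays (limma adjusted p = 0.445 and 0.214), and Eif2s3y passed without null replicate 1 (-4.10, adjusted p = 0.0439).

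The smallest adjusted p belonged to an increase of Rpgrip1, a protein of the photoreceptor connecting cilium. Its signals were 15510, 16620, 15390, 15700 and 16630 in the null and 2727, 2231, 1796 and 2378 in the wild type. The null arrays lay close together and far above the wild type (2.80 ± 0.16 SE, limma adjusted p = 9.76e-06; up to 0.000173 without any 1 array). Arhgap39 was at 10390, 9670, 12480, 8806 and 7377 against 1867, 2217, 2287 and 2483 (2.11 ± 0.19 SE, adjusted p = 0.000494). Uri1, a prefoldin-like protein, was at 14170, 17120, 19490, 22770 and 18350 against 4714, 5877, 5875 and 6202 (1.68 ± 0.16 SE, adjusted p = 0.000726). In these 3 genes null replicate 1 lay with the other null arrays, well clear of the wild type. Dimmer probe sets of Arhgap39 and Uri1 did not follow: the other one tested for Arhgap39 had a difference of 0.05 (adjusted p = 0.957), and those tested for Uri1 had differences of -0.02 and 0.24 (adjusted p = 0.982 and 0.814).

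Tmed4, which sorts cargo between endoplasmic reticulum and Golgi, was at 15250, 16000, 15290, 13740 and 15810 in the null and 5092, 6143, 4714 and 4256 in the wild type (1.59 ± 0.15 SE, limma adjusted p = 0.000584). Srd5a3, a reductase that makes the lipid carrier of protein glycosylation, was at 4682, 8120, 5446, 4706 and 6402 against 1354, 1209, 1368 and 965.2 (2.21 ± 0.22 SE, adjusted p = 0.000869). Cox15, which assembles cytochrome oxidase by making its heme, was at 963.8, 1816, 833.4, 948.7 and 440.3 against 159.2, 24.8, 22.4 and 64.1 (3.37 ± 0.48 SE, adjusted p = 0.0098). These 3 genes, like the 3 before them, remained called whichever array was left out. The other probe sets tested for Srd5a3 had differences of 0.09, 0.44 and 0.30 (adjusted p = 0.897, 0.253 and 0.562) and that for Tmed4 one of -0.16 (adjusted p = 0.883), while another probe set of Cox15 was also called higher (2.39, adjusted p = 0.0391). Cox15 was the only 1 of 9 assembly genes of oxidative phosphorylation to be called, and the median difference of that list was -0.07.

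Cbln1, a secreted organiser of synapses, had the largest increase, at 2301, 1606, 540.7, 1958 and 6208 in the null and 149.3, 51.8, 103.8 and 161.7 in the wild type (3.73 ± 0.58 SE, limma adjusted p = 0.0124; 0.0609 and 0.0518 without wild-type replicate 2 or 3). Tmem163, a zinc transporter of vesicles, was at 1221, 530.1, 659.4, 1166 and 35.0 against 5.0 to 22.2 (3.39 ± 0.75 SE, adjusted p = 0.0469). Null replicate 5 was the exception, close to the wild type, and without it the adjusted p was 0.00218. Ndnf, a secreted factor of neurons and vessels, was at 7200, 1012, 1670, 13380 and 2362 against 316.5, 305.6, 555.4 and 331.5 (3.05 ± 0.65 SE, adjusted p = 0.0428). The calls of Tmem163 and Ndnf were lost without any wild-type array (adjusted p = 0.104 to 0.146), that of Tmem163 also without null replicate 2, 3 or 4 and that of Ndnf without null replicate 3 or 5 (0.0577 to 0.0929).

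Perp, a membrane protein of desmosomes that p53 induces, was at 4190, 296.6, 564.6, 1562 and 2286 in the null and 165.0, 95.1, 157.2 and 29.0 in the wild type (3.22 ± 0.69 SE, limma adjusted p = 0.044), and it was the only 1 of 12 genes of the p53 and Bcl2 list called. Ang, a secreted ribonuclease, was at 337.5, 566.1, 209.6, 518.7 and 466.8 against 48.1, 56.1, 19.2 and 14.8 (2.66 ± 0.40 SE, adjusted p = 0.0114). Trim68, a ubiquitin ligase, was at 2666, 2537, 2463, 2072 and 2434 against 170.7, 205.9, 746.7 and 849.3 (2.51 ± 0.43 SE, adjusted p = 0.0215). For Trim68 the null arrays were close together and the wild-type arrays were not. Perp lost its call without null replicate 3, 4 or 5 or any wild-type array (adjusted p = 0.0586 to 0.144), Ang without wild-type replicate 3 or 4 (0.0547 and 0.0553), and Trim68 without null replicate 2 or wild-type replicate 1 or 2 (0.0501 to 0.0852).

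The remaining genes among the 15 largest increases were Crtac1, a secreted cartilage protein (2.43 ± 0.46 SE, limma adjusted p = 0.0309), Tmem74b (2.34 ± 0.47 SE, adjusted p = 0.0371) and Gm16551 (3.04 ± 0.60 SE, adjusted p = 0.0339). Null replicate 1 had the highest signal of Crtac1, 3108 against 506.0 to 1354 in the other null arrays and 146.6 to 250.8 in the wild type. All 3 were apart between the groups. Each lost its call without any wild-type array and without null replicate 2 and at least 1 further null array (adjusted p = 0.0514 to 0.118).

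Decreases were led in size by AI506816, whose call rested on single arrays. It was at 17.8, 41.5, 339.8, 5330 and 234.9 in the null and 6914, 7581, 7805 and 9781 in the wild type (-4.75 ± 1.06 SE, limma adjusted p = 0.0486), so that null replicate 4 lay near the wild type. Its adjusted p was 0.0314 without null replicate 1 and 0.0773 to 0.149 without null replicate 2, 3 or 5 or any wild-type array. Cap1, an actin-binding regulator, was at 257.0, 116.6, 176.4, 106.0 and 76.3 against 3111, 4268, 1168 and 1935 and fell 17.9-fold (-3.79 ± 0.43 SE, adjusted p = 0.00258). Tmem267, a membrane protein, was at 98.4, 144.6, 119.8, 103.6 and 231.8 against 1900, 2035, 2456 and 2535 and fell 16-fold (-3.73 ± 0.31 SE, adjusted p = 0.00029). Cap1 and Tmem267 remained called without any 1 array, with an adjusted p up to 0.0197 and 0.00408.

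Among the other large decreases, Trim5, which restricts retroviruses, was at 62.2, 31.6, 13.3, 45.1 and 33.8 in the null and 288.4, 800.2, 1518 and 1123 in the wild type (-3.54 ± 0.48 SE, limma adjusted p = 0.00677). Ifi202b, an interferon-induced sensor of DNA, was at 3.9 to 6.8 against 206.2, 317.6, 404.2 and 223.2 (-2.93 ± 0.37 SE, adjusted p = 0.00484). Iigp1, an interferon-induced GTPase, was at 289.4, 323.8, 52.0, 186.6 and 154.3 against 1485, 907.6, 2087 and 1692 (-2.83 ± 0.45 SE, adjusted p = 0.0141). Cd59a, which shields cells from complement, was at 473.9, 658.9, 434.2, 289.0 and 916.1 against 3175, 4489, 3482 and 5234 (-2.87 ± 0.33 SE, adjusted p = 0.00258). Another probe set tested for Cd59a overlapped between the groups (0.09, adjusted p = 0.923), and another for Iigp1 was also called lower (-3.08, adjusted p = 0.0182). On the probe sets counted here all but Iigp1 remained called without any 1 array, and Iigp1 was lost without wild-type replicate 1, 3 or 4 (adjusted p = 0.0542 to 0.0685). No enrichment of such genes was tested: of the 8 listed interferon-induced genes that could be tested, Ifi202b was the only 1 called, and their median difference was -0.57.

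Of the other large decreases, Sqor, a mitochondrial sulfide oxidase, was at 88.4, 58.2, 73.3, 290.4 and 99.1 in the null and 464.0, 938.1, 862.1 and 1332 in the wild type (-2.63 ± 0.45 SE, limma adjusted p = 0.0201). Shoc2, a scaffold of the Ras and MAP kinase pathway, was at 2726, 538.6, 530.7, 938.5 and 950.7 against 6696, 4608, 5358 and 4749 (-2.46 ± 0.42 SE, adjusted p = 0.0194). Zfp945, a zinc finger gene, was at 243.4 in null replicate 1 and 3.3 to 9.1 in the other null arrays, against 373.2 to 1064 in the wild type (-3.28 ± 0.63 SE, adjusted p = 0.0314). Ushbp1 had a difference of -2.48 ± 0.56 SE (adjusted p = 0.0491). For Shoc2 and Zfp945 null replicate 1 was the null array nearest to the wild type, and without it their adjusted p were 0.000644 and 0.00129. The calls were lost without wild-type replicate 2, 3 or 4 for Sqor (0.0838 to 0.0926), without any wild-type array for Shoc2 (0.0713 to 0.0771), and without null replicate 2, 3 or 5 or any wild-type array for Zfp945 (0.0544 to 0.107) and Ushbp1 (0.0543 to 0.169).

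Of 19 mitosis genes 2 rose, with a median difference of 0.34, and 9 of them had an unadjusted limma p below 0.05. Of all 12161 genes 0.748% rose with all 9 arrays and 2.89% without null replicate 1, and 2319 had an unadjusted limma p below 0.05. Top2a, the topoisomerase that untangles chromosomes, was at 56000, 51940, 49760, 51940 and 54650 in the null and 28790, 33730, 32630 and 37980 in the wild type (0.67 ± 0.11 SE, adjusted p = 0.0155; 0.0542 to 0.0723 without wild-type replicate 1, 2 or 3). Prc1, which bundles microtubules of the dividing spindle, was at 12280, 15820, 13380, 22200 and 20620 against 7877, 9139, 7524 and 9379 (0.96 ± 0.19 SE, adjusted p = 0.0377; 0.0514 to 0.13 without null replicate 2, 3 or 5 or any wild-type array). Without null replicate 1, 5 of the 19 were higher, Ccna2, Cenpe and Tpx2 joining them at 0.87, 0.74 and 0.56 (adjusted p = 0.00334, 0.01 and 0.0442). Mki67, the usual marker of proliferation, did not pass with or without it (0.41, adjusted p = 0.117 and 0.0744). Of 16 DNA replication genes 0 were called with all 9 arrays and 4 had an unadjusted p below 0.05.

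Among the 169 called genes with a window in the RefSeq table, 2 held the posterior Hox letters, Olfm1 and Pi4ka, both higher in the null and both named because of this match. That is 2 of 70 genes called higher (2.86%) and 0 of 99 called lower, where 0.641% of the genes tested held them, in a count too small to read a difference from. Olfm1, a secreted glycoprotein of neurons, was at 1806, 1431, 1511, 2492 and 2589 in the null and 956.0, 354.7, 782.5 and 606.8 in the wild type (1.53 ± 0.33 SE, limma adjusted p = 0.0428). Pi4ka, a lipid kinase, was at 13620, 12770, 14870, 11670 and 12650 against 9111, 7470, 7108 and 8490 (0.71 ± 0.14 SE, adjusted p = 0.0347). Olfm1 lost its call without any array but null replicate 1 (adjusted p = 0.062 to 0.133), and Pi4ka without null replicate 2, 3 or 5 or any wild-type array (0.0528 to 0.124). Both windows are given, with the matching letters in capitals: that of Olfm1 is chr2:28205439-28205688 on the plus strand, before the second of its annotated starts, and that of Pi4ka is chr16:17406315-17406564 on the minus strand.
Olfm1: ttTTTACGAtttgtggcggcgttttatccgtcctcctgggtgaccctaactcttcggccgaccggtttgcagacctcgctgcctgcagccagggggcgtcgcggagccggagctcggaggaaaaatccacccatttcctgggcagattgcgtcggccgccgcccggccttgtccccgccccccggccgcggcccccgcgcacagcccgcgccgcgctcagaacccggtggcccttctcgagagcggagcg
Pi4ka: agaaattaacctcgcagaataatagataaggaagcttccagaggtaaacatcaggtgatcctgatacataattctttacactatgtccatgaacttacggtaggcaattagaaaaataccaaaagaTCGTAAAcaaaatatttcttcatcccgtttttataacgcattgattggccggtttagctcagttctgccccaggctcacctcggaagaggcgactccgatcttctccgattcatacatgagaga
The Rbpj letters occurred in 11 of the 70 genes called higher (15.7%) and in 24 of the 99 called lower (24.2%), against 23.5% of the genes tested.

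Leaving out null replicate 1 added more calls than leaving out any other array. Without it 821 genes were called (6.75%), 351 higher (2.89%) and 470 lower (3.86%). All 212 genes called with it were among them, with the same direction, and 609 were added, 260 higher and 349 lower. The median standard error over probe sets moved little, from 0.351 to 0.335. For the 212 genes, null replicate 1 lay on the null side of the midpoint between the other null arrays and the wild type in 193 (91.0%), at a median of 0.953 of the way from the wild-type mean (0) to the mean of the other null arrays (1). For the 609 added genes it lay on the null side in 196 (32.2%), at a median of 0.232, and inside the range of the wild-type arrays in 192 (31.5%). Over all 12161 genes the values were 49.2% and 0.467. Since the 609 genes were chosen for passing the threshold without null replicate 1 and missing it with that array, these positions are a description.

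The same could be asked of each null array through the probe sets called without it. Null replicate 1 lay on the null side for 38.6% of the 1866 probe sets called without it (7.98%, of which 531 higher, 2.27%, and 1335 lower, 5.71%). Null replicates 2 to 5 did so for 87.8%, 82.6%, 62.6% and 76.2% of 172, 172, 487 and 248 probe sets. Over all probe sets tested the shares were 46.2% for null replicate 1 and 61.6%, 60.7%, 52.8% and 57.6% for the others. Null replicate 1 was thus the only null array that lay on the wild-type side for most of the probe sets called without it. These sets are not alike, since the fits without null replicates 2 to 5 still held null replicate 1 and called fewer probe sets. The shares are therefore a description and do not rank the arrays on equal terms.

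**Figure D4:**
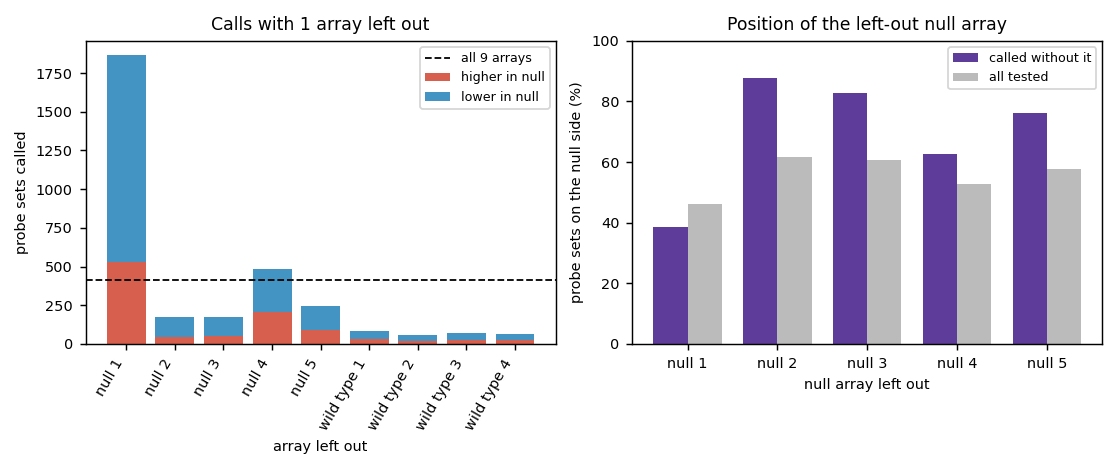
On the left, the bars give the number of probe sets called higher (red) and lower (blue) in the null when the array named on the x axis is left out, with the 411 called with all 9 arrays as a dashed line; only the fits without null replicates 1 (1866) and 4 (487) exceed it. On the right, the bars give the percentage of probe sets for which the left-out null array lies on the null side of the midpoint, for the probe sets called without it (purple) and all tested (grey); null replicate 1 is the lowest at 38.6%.

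Among the increases gained without null replicate 1, Igfbpl1, made by neural progenitors, was at 819.7, 372.1, 179.1, 1610 and 59.2 in the null and 8.0 to 26.5 in the wild type. It missed the threshold with all 9 arrays (2.99 ± 0.72 SE, limma adjusted p = 0.0627) and passed without null replicate 1 (2.73, adjusted p = 0.0475). Nell2 (2.64, adjusted p = 0.0186), Lhx3, a factor of motor neurons (2.52, adjusted p = 0.042), Gbx2, a factor of the hindbrain (2.27, adjusted p = 0.0203), Fgf15 (2.27, adjusted p = 0.046) and the receptor Gpr12 (2.06, adjusted p = 0.0458) did the same. For Igfbpl1, Nell2, Lhx3 and Gbx2 null replicate 1 lay above every wild-type array, so these genes did not follow the wild type in it. The largest gain was 3110045C21Rik, at 6.0 in null replicate 1 and 1250 to 2466 in the other null arrays, against 102.3 to 386.8 in the wild type (2.76, adjusted p = 0.00418).

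Among the gained decreases, Ly86, a partner of a Toll-like receptor, was at 933.7, 3.0, 2.9, 231.7 and 6.2 in the null and 702.5, 2305, 1292 and 177.8 in the wild type (-3.69 without null replicate 1, limma adjusted p = 0.0242; -2.91, adjusted p = 0.159 with it). Ctss, a lysosomal protease, was at 1775, 89.5, 88.4, 904.4 and 52.6 against 3666, 3198, 2628 and 1015 (-3.66, adjusted p = 0.0141 without it). Mpeg1, the macrophage perforin, was at 1184, 6.5, 13.6, 329.3 and 7.5 against 703.2, 1270, 1664 and 313.7 (-3.51, adjusted p = 0.0207). Null replicate 4 was the next highest null array for all 3.

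Ptprc, the leukocyte antigen CD45, was at 1224 in null replicate 1 and at 3.0 to 77.5 in the other null arrays, against 240.1 to 1446 in the wild type (-3.33 without null replicate 1, limma adjusted p = 0.00888). Lyz1, the lysozyme of macrophages (-3.05, adjusted p = 0.0115), and C1s1, a complement protease (-2.99, adjusted p = 0.0283), were gained too. So were C1qa, C1qb and C1qc, the chains of complement C1q, at -2.19, -2.10 and -2.10 (adjusted p = 0.0189, 0.0115 and 0.0267), and Laptm5, a lysosomal protein of leukocytes, at -2.48 (adjusted p = 0.0273). With all 9 arrays these 4 had an adjusted p of 0.212, 0.134, 0.11 and 0.0523. Zfp934, a zinc finger gene, was at 2092 in null replicate 1 and 13.5 to 93.9 in the other null arrays, against 675.3 to 2001 in the wild type (-3.94, adjusted p = 0.00145 without it).

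Further genes set null replicate 1 apart from the other null arrays without any call against the wild type. Hoxd3os1, an antisense transcript of the Hoxd cluster, was at 19920 there and at 13.8 to 724.1 in the other null arrays, with 1452 to 1774 in the wild type, so null replicate 1 exceeded all 8 other captured arrays. Dner, a neuronal membrane protein that can bind Notch, was at 9292 there and at 4266 in null replicate 4, against 23.3 to 348.3 in the rest of the null and 117.6 to 422.7 in the wild type. Garem1, an adaptor of growth factor signalling, was at 4656 against 83.6 to 197.4 in the other null arrays, and Zfp40, a zinc finger gene, at 2700 against 6.5 to 208.7. Taf15, an RNA-binding protein, was at 5194 against 21.1 to 1065.

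On the low side, Galc, a lysosomal galactosidase, was at 131.9 in null replicate 1 and 2572 to 3900 in the other null arrays, and Dpep1, a dipeptidase of the kidney, at 17.7 against 833.9 to 1268. Lsm12 was at 39.3 against 873.5 to 3105. In these 3 genes the wild type, at 2576 to 3334, 758.7 to 1903 and 499.7 to 1383, overlapped null replicates 2 to 5, so null replicate 1 stood below both groups. Its sum of progenitor markers, 60850, lay inside the wild-type range, and it had the lowest weight of the 9 arrays, 0.317, when limma estimated 1 from the data.

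With null replicate 4 left out as well, a choice made after its muscle markers were seen, 1243 genes were called. Of the genes described above, Hoxa11os, Slc26a7, Dll1, Frzb, Rpgrip1, Cap1, Tmem267, Trim5, Ifi202b, Cd59a, Cox15, Arhgap39, Tmed4, Uri1 and Srd5a3 kept their call in each of the 9 fits that left out 1 array. The mean of the 3 hand-dissected wild-type arrays, which entered the choice of probe set for each gene but not the test, lay on the wild-type side of the midpoint for 164 of the 212 called genes (77.4%) and for 420 of the 609 gained ones (69.0%), against 59.5% of all genes tested. Its median position between the wild-type mean (0) and the null mean (1) was nearly alike in these sets, at 0.154, 0.172 and 0.148. The arrays that set the midpoint also chose the called and gained genes, with their wide gaps. These shares are therefore a description and no independent check of the calls. Single hand-dissected arrays went the other way: the one with replicate number 5 was at the null level for Trim5 (50.2, with 1273 and 1296 in the other two) and for Trim68 (2618, with 434.1 and 1080). For Tyrobp (192.3, 588.9 and 689.4) and Aldh1a3 (169.9, 55.2 and 109.4) all 3 lay below the wild-type captures, at levels like those of the null.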

How the data were processed

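The authors deposited one table of MAS5 signal intensity per probe set and array, linear and scaled per array, per the submitters' processing notes; the software version was not given in the sources used. RNA from the captured cells was amplified in 2 rounds before hybridisation to Affymetrix mouse arrays, per the labels' protocols. Control probe sets were left out. Signals were taken as log2(signal + 36.3), the offset being the 25th percentile of all signals, and probe sets above their array's median in at least 4 of the 9 arrays were kept (23387 of 45037). Null and wild type were compared with limma 3.58.1 (lmFit, eBayes with trend) in R 4.3.3, with Benjamini-Hochberg adjustment and a threshold of 0.05. Each gene was represented by the probe set with the highest mean log2 signal over the 16 arrays. Summaries and figures used Python 3.11.15, pandas 2.3.3, numpy 2.4.6, scipy 1.17.1 and matplotlib 3.10.9. The fit was tested on simulated data.

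Named genes were the labelled markers, the 15 largest called increases and decreases, the 8 smallest p-values, up to 4 called members of each list or, with fewer than 2 called, its 3 brightest, the 8 largest gains in each direction without null replicate 1, and the 6 highest and 6 lowest genes of that array against the other null arrays; not all of these are printed, and others are chosen after their values were seen. The members and gene lists were chosen with earlier results of these data known. Alternatives were other offsets, a floor, other scalings, filters, array weights, no trend, robust moderation, all 16 arrays, the replicate number as a block and each array left out; fits on the same probe sets without an array other than null replicate 1, and without null replicates 1 and 4, were chosen after seeing the data. Arrays carry no read depth, so their number limits the precision.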

Additional observations from a re-analysis of the deposited data

Results flagged for a closer look

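Single arrays far from the rest of their group were searched for among the genes and sums named in the text, on the scale of log2(signal + 36.3) for genes and log2 for sums. Of 274 groups over 137 measures, 25 held such an array, where chance gives about 1 in 20, and 11 of the 25 were null replicate 1. Some of these genes were named because null replicate 1 was extreme in them or kept them from being called, so neither number measures how often it stands apart.

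Null replicate 1 was far from the other null arrays in its median signal (209.2), above them for Zfp945 (243.4), Zfp934 (2092) and Garem1 (4656), and below them for Ccna2 (12270), Calb1 (79.4), 3110045C21Rik (6.0), Galc (131.9) and Dpep1 (17.7). It was also below them for Fdft1 (11250) and Nsdhl (4439), enzymes of cholesterol synthesis. Null replicate 2 was high for Jag1 (8612). Null replicate 4 was low for Wnt4 (2869) and high for Sqor (290.4). Null replicate 5 was low for Tmem163 (35.0) and high for Nr5a1 (3089) and the summed gonad and coelomic markers (39850).

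Among wild-type arrays, replicate 1 was low for Hey1 (3186) and Kdr (909.5) and high for Bcl2l11, an activator of cell death (22740). Replicate 2 was low for Sqle (13860), replicate 3 high for Ndnf (555.4), and replicate 4 low for Rspo3 (3720) and Nsdhl (3683) and high for the summed neuronal and neural crest markers (55410). Bcl2l11 was lower in the null only without null replicate 1 (limma adjusted p = 0.0296; 0.146 with all 9 arrays).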

How the results depend on the processing

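With all 9 arrays 411 probe sets (138 higher, 273 lower) and 212 genes (91 higher, 121 lower) were called. The numbers of probe sets and genes were 207 and 97 with arrays centred on their medians, 256 and 120 with no filter, 215 and 95 with no intensity trend, 1654 and 798 with array weights, and 1793 and 893 in a fit of all 16 arrays. Leaving out 1 array gave 60 to 1809 probe sets and 29 to 814 genes: fewest without a wild-type array, most without null replicate 1. On the probe sets kept with all 9 arrays, the counts were 1866 and 821 without null replicate 1, 172 and 89 without null replicate 2 or 3, and 248 and 131 without null replicate 5. They were 85, 60, 73 and 64 probe sets and 47, 33, 34 and 37 genes without wild-type replicates 1 to 4. Null replicate 1 left out with quantile normalization gave 1402 and 671, and null replicates 1 and 4 left out together 2494 and 1243. Other offsets, a floor, quantile normalization, cyclic loess and robust moderation kept both counts within 1.5 times. With the replicate number as a block 53 probe sets and 29 genes were called; no label says that the numbers pair arrays, and the deviations of same-numbered arrays correlated at -0.005, 0.034, -0.047 and 0.074. The sign turned for Hoxd11 and Dpep1 without null replicate 1 under quantile normalization (0.04 and 0.01), for Gdnf without null replicate 2 (-0.02, to 0.77 without null replicate 4), and without null replicate 1 for Garem1 (-0.37, to 0.97 without wild-type replicate 1) and Galc (0.20, to -0.94 without null replicate 2, and 0.27 with quantile normalization). It turned for Dner (-0.93), Garem1 (-0.18) and Galc (0.20) without null replicates 1 and 4, and for Lsm12 with the block (-0.15) and without null replicate 3 (-0.05) or 5 (-0.15, to 1.20 without null replicate 1). None of these was called, and the cause was not tested. With 4 and 5 arrays, differences of genes that vary within a group could not be resolved, and signals near the offset carry little order.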

Other observations

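The called genes included an enzyme of cholesterol synthesis and the pathway's transcription factor, and lists of this and of neighbouring functions were drawn up after those calls were seen, so they have no test. Of 22 genes of cholesterol synthesis and its regulator SREBP, 2 rose, 0 fell, 21 had a difference above 0, and the median was 0.68. Sqle, squalene epoxidase, had signals of 25300, 38940, 36970, 31960 and 37930 in the null and 16780, 13860, 16440 and 16610 in the wild type (1.09, limma adjusted p = 0.00717; up to 0.0365 without any 1 array). Srebf2, the transcription factor that drives the pathway, was at 2005, 2709, 1689, 1445 and 1556 against 815.4, 940.0, 756.2 and 751.0 (1.14, adjusted p = 0.0467; 0.0603 to 0.153 without null replicate 2, 3 or 5 or any wild-type array). Both were apart between the groups. The summed signal of the list was 168900, 258400, 262700, 222200 and 303600 in the null and 144800 to 160700 in the wild type, with null replicate 1 the nearest to the wild type. Without null replicate 1, 11 of the 22 rose, where 2.89% of all genes did. Among them Msmo1 (limma adjusted p = 0.00224), Fdft1 (0.00257), Nsdhl (0.0052) and Cyp51 (0.0115) missed the threshold with all 9 arrays (0.0544, 0.0861, 0.0865 and 0.0573). With 1 of null replicates 2, 3 or 5 or any wild-type array left out, 1 of the 22 was higher.

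Genes of the secretory pathway, listed in the same way, also held calls, where 0.748% of all genes rose. Of 11 genes of the oligosaccharyltransferase, which attaches sugars to new proteins, 2 rose, with a median of 0.39: Rpn2 (1.06, limma adjusted p = 0.0412) and Stt3b (0.96, adjusted p = 0.0265). Of 13 protein disulfide isomerases 3 rose, with a median of 0.46: Pdia6 (0.54, adjusted p = 0.0466), Txndc5 (0.91, adjusted p = 0.0321) and Tmx2 (0.84, adjusted p = 0.0452). Each of these 5 calls was lost without null replicate 3 or any wild-type array, all but that of Stt3b also without null replicate 2, and those of Pdia6, Txndc5 and Tmx2 without null replicate 5 (adjusted p = 0.0502 to 0.148). The other secretory lists had lower medians. Of 9 TMED cargo receptors 1 rose, Tmed4 (median 0.17), and of 12 genes of the COPII coat 1 rose, Sec23b (median 0.08). The call of Sec23b (limma adjusted p = 0.042) was lost without any array but null replicate 1. In the other direction, of 287 genes named Zfp with a number, 0 rose and 13 fell (4.53%, against 0.995% of all genes), their median was -0.39, and 78.0% had a difference below 0, against 58.4% of all genes. Without null replicate 1, 30 of them fell (10.5%, against 3.86% of all genes). The Zfp group was not among the planned lists and has no test either. Its counts were not taken under other scalings or beside genes of like level. With each array centred on its median, the median difference of all genes moved from -0.10 to 0.20, so the size of this shift depends on the scaling.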
